A study of Homo sapiens with 9 samples.

Results

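In SUIT2 cells exposed to interferon beta, 114 protein-coding genes formed an early falling set: each was down by at least 40% at 6 h, and 68 of them were at 0.8 of the control level or above at 24 h. SUIT2 is an established human pancreatic cancer cell line, and interferon beta is a type I interferon. The genes were chosen by their measured values, which are therefore a description and not a result. A gene was kept if it was protein-coding, its control mean was at least 2 CPM (counts per 1e6 counts in the library, after TMM scaling), its 6 h/control ratio of means was at most 0.6, its highest 6 h library lay below its lowest control library, and its 24 h/control ratio was under 1.5. CERK, ZMAT3 and INSIG1 were left out by name. Of 16964 genes tested, 11220 were protein-coding with a control mean of at least 2 CPM, and 146 of those had a 6 h/control ratio of at most 0.6. Of these 146 genes, 8 had libraries that were not apart from control, 22 had a 24 h/control ratio of 1.5 or more and 2 were left out by name, and the other 114 are the set described here.

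Total RNA of 9 samples was sequenced, in 3 groups of 3: cells labelled control treated, cells given 100 U/mL human interferon beta for 6 h, and cells given the same dose for 24 h. All were unmodified SUIT2 cells plated at 500000 per well in 6-well plates and given fresh medium at treatment. The labels give no time for the control cultures, carry the same treatment text on controls as on treated samples, and do not say whether replicates were separate cultures, so a p-value covers only the spread among libraries, which could be technical in part or whole. Since the controls form 1 group of unstated time, the effect of interferon beta cannot be told apart from that of time after fresh medium. This holds for the falls at 6 h and for the classes at 24 h. Estimated counts per library totalled 15101734 to 40384407. Of 24 pancreatic and epithelial lineage markers, 19 passed 1 CPM, and their summed level was 5885 to 5934 CPM in controls, 6443 to 6722 CPM at 6 h and 6763 to 6881 CPM at 24 h. Among 14 leukocyte markers 11 stayed under 1 CPM, with PTPRC, CD3D, CD3E, MS4A1 and NKG7 at 0, and their sum of 258 to 270 CPM in controls, 372 to 389 CPM at 6 h and 405 to 426 CPM at 24 h came mainly from genes such as CD68 and LYZ. Among 17 fibroblast, endothelial and acinar markers 15 stayed under 1 CPM, with DCN, KDR, CPA1 and PNLIP at 0, and their sum was 4.56 to 5.74, 7.61 to 8.63 and 6.41 to 6.90 CPM. The part of these shifts in the results was not tested.

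Type I interferon binds a receptor on the cell surface, and kinases of the JAK family then phosphorylate STAT proteins, which enter the nucleus and switch on the interferon-stimulated genes. The level of a transcript in a cell is set by how fast it is made and how fast it is degraded, and short-lived transcripts are those whose level can move within hours. In bulk RNA, fewer cells making a transcript and less RNA per cell cannot be told apart. As a check on the treatment, 17 of 20 interferon-response genes listed for this work passed the test as higher at 6 h, against 17.5% of all tested genes, and 1 passed as lower; none of the 20 is among the 114.

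The genes split 3 ways at 24 h. They were called recovered where the 24 h/control ratio was at least 0.8, part way where it lay between 0.6 and 0.8, and still low where it was at most 0.6. By these limits 68 genes had recovered, 20 were part way and 26 were still low. The promoters of 4 genes show both ends of this range, the genes with the highest 24 h/control ratios (ANKS4B and SMO) and those with the lowest (KLF2 and HAS3). Each runs from 250 bases before to 50 bases after the RefSeq start site, on GRCh38.p14, plus strand: ANKS4B at chr16:21233449-21233748, SMO at chr7:129188383-129188682, KLF2 at chr19:16324576-16324875 and HAS3 at chr16:69107290-69107589. The HAS3 window lies inside the deposited gene, which starts at 69105653, so it belongs to a start site downstream of that position. Capitals mark matches, on either strand, to the letters of a short motif.
ANKS4B: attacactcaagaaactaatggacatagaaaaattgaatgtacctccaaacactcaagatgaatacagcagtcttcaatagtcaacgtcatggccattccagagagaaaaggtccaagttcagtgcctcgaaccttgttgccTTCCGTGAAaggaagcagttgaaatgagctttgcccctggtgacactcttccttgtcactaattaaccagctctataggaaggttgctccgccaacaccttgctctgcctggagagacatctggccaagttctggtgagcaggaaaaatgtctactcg
SMO: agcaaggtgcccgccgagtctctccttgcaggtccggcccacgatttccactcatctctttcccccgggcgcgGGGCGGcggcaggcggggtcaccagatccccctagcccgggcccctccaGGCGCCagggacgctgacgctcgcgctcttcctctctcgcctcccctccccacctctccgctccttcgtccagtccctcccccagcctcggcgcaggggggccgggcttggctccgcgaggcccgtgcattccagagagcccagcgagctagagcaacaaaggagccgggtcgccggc
KLF2: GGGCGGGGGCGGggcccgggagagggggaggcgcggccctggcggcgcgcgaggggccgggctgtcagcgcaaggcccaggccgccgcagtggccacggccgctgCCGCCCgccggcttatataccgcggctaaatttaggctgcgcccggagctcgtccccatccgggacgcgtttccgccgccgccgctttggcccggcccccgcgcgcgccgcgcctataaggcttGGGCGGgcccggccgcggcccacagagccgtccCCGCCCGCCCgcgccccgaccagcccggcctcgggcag
HAS3: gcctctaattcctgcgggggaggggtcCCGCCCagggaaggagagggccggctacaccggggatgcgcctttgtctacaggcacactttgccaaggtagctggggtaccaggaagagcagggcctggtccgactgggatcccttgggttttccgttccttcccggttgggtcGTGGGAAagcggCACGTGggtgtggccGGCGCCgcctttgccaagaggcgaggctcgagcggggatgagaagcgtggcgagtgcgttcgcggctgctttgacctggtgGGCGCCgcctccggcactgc
The motifs searched on both strands were GGGCGG for the GC box bound by Sp and Kruppel-like factors, CCAAT for the box of that name, TATAAA for the TATA box, CACGTG for the E-box of Myc and clock factors, TGACTCA for the AP-1 site of Fos and Jun, and TGACGTCA for the cyclic AMP response element. Others were CCGGAAG for the core of ETS factors, GGCGCC for the response element of bone morphogenetic signals, GTCTAGAC for the box bound by Smads, GTGGGAA for the CSL site of the Notch pathway, TTCNNNGAA for the GAS element and GAAANNGAA for the core of the interferon-stimulated response element. KLF2 held 6 GC boxes, 2 of them overlapping, and SMO held 1 GC box and 1 GGCGCC. HAS3 held 1 GC box, 1 CSL match, 1 E-box and 2 matches to GGCGCC, and ANKS4B held a single GAS match. Of all 35116 RefSeq promoters of this length, 44.95% held a GC box, 19.2% GGCGCC, 7.66% a GAS match, 7.26% an E-box and 6.25% a CSL match. A closer background is the 9016 protein-coding genes outside the set with a promoter and a control mean of at least 2 CPM. There the shares were 71.8%, 31.8%, 6.08%, 10.4% and 5.78%, in the same order. These letters are descriptions of the sequence and not binding sites. The GAS element is what phosphorylated STAT dimers are known to bind, and none of the other 3 windows holds those letters. RefSeq promoters matched 73 of the 114 genes (64.0%), too few for any share over the set to be read, so the comparison of promoter composition is void.

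At 6 h the ratio to control ran from 0.349 to 0.5998 with a median of 0.545, and at 24 h from 0.184 to 1.48 with a median of 0.877. For each library, the median over the 114 genes of the level relative to the control mean was 0.992, 1.00 and 1.01 in the controls, 0.547, 0.532 and 0.538 at 6 h, and 0.888, 0.896 and 0.854 at 24 h. The 3 libraries of each group lay close together, and the groups did not overlap in this measure. Between controls and 6 h the selection required this of every gene. The same holds wherever the groups of a single gene are said below not to overlap. At 24 h the ratio had a lower quartile of 0.628 and an upper quartile of 1.09, against 0.508 and 0.574 at 6 h. The selection held the 6 h ratio to at most 0.6 but let the 24 h ratio run to 1.5. The narrower range at 6 h is thus set by the choice, and nothing is read from the difference. Just inside the limit on the 6 h/control ratio were GPR155 (0.5998), PPP1R14C (0.5992), HTR1D (0.5989) and ZNF488 (0.5975), and just outside it were PLEKHH3 (0.6003), RASA4B (0.602), ARMCX4 (0.603) and SLC26A2 (0.603). The 4 genes just inside had recovered, and so had 3 of the 4 just outside, with SLC26A2 at a 24 h/control ratio of 0.797.

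**Figure D1:**
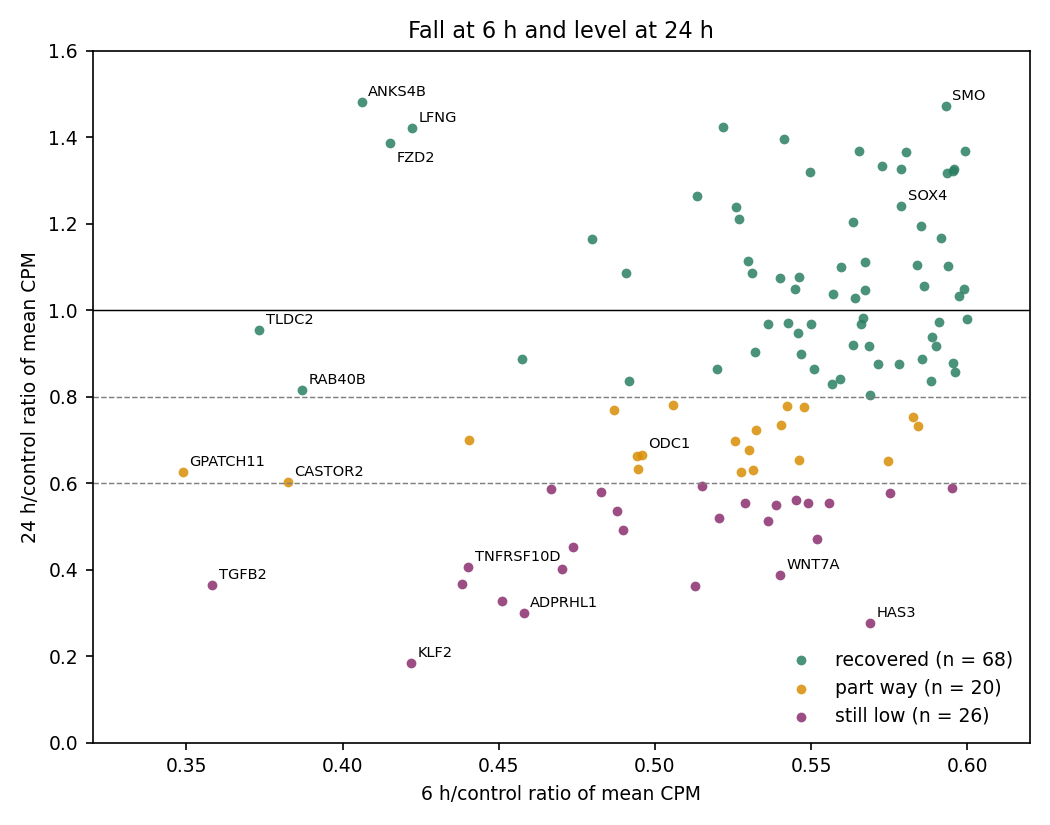
Ratio of mean CPM at 6 h to control (horizontal) against that at 24 h to control (vertical) for the 114 genes, coloured by class at 24 h. Dashed lines mark 0.6 and 0.8 and the solid line marks 1; KLF2 and ANKS4B, at similar 6 h ratios of 0.422 and 0.406, end at 0.184 and 1.48.

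The direct comparison of 24 h with 6 h was tested with edgeR over all 16964 genes. It is not a comparison the selection used, but it shares the 6 h libraries that chose the genes, so a return towards control is favoured by the choice and the counts are no independent support. Of the 114 genes 91 (79.8%) passed as higher at 24 h than at 6 h, beside 26.6% of all tested genes, and 5 (4.39%) passed as lower, beside 30.6%. The median log2 difference was 0.66 over the 114 genes and -0.02 over all tested genes. All 68 recovered genes and all 20 part-way genes passed as higher. Their direction was fixed by the limits, since these classes lie above 0.6 of control at 24 h and every gene was at most 0.6 at 6 h. Of the 26 still-low genes 3 passed as higher (P2RY2, CDON and GPAM), 5 passed as lower (KLF2, HAS3, ADPRHL1, WNT7A and ATPSCKMT) and 18 did not pass. By library, all 3 levels at 24 h lay above all 3 at 6 h for 92 of the genes, against 29.8% of all tested genes.

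Against the controls, which the selection did use, the libraries at 24 h lay above every control for 23 of the genes (29.9% of all tested genes), below every control for 56 (30.1% of all tested genes) and overlapped them for 35. The selection capped the ratio at 24 h, so nothing is read from these shares. All 23 genes above control were of the recovered class: ANKS4B, BCL7A, CRYBG2, CYP26B1, EFNA2, FZD2, GCOM1, HTR1D, JPH1, KCNE3, LFNG, MRAS, MYZAP, NOSTRIN, PPP1R14C, RIMKLA, SESN3, SGK2, SLC25A42, SMO, SOX4, ST3GAL5 and SYNM. Recovered genes with all 24 h libraries still below control numbered 10 (RAB40B, RAB4A, GEM, ADGRA3, FAM43B, IRS2, FGD5, INAFM2, PHF20 and PFKFB3), and 35 overlapped the controls.

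**Figure D2:**
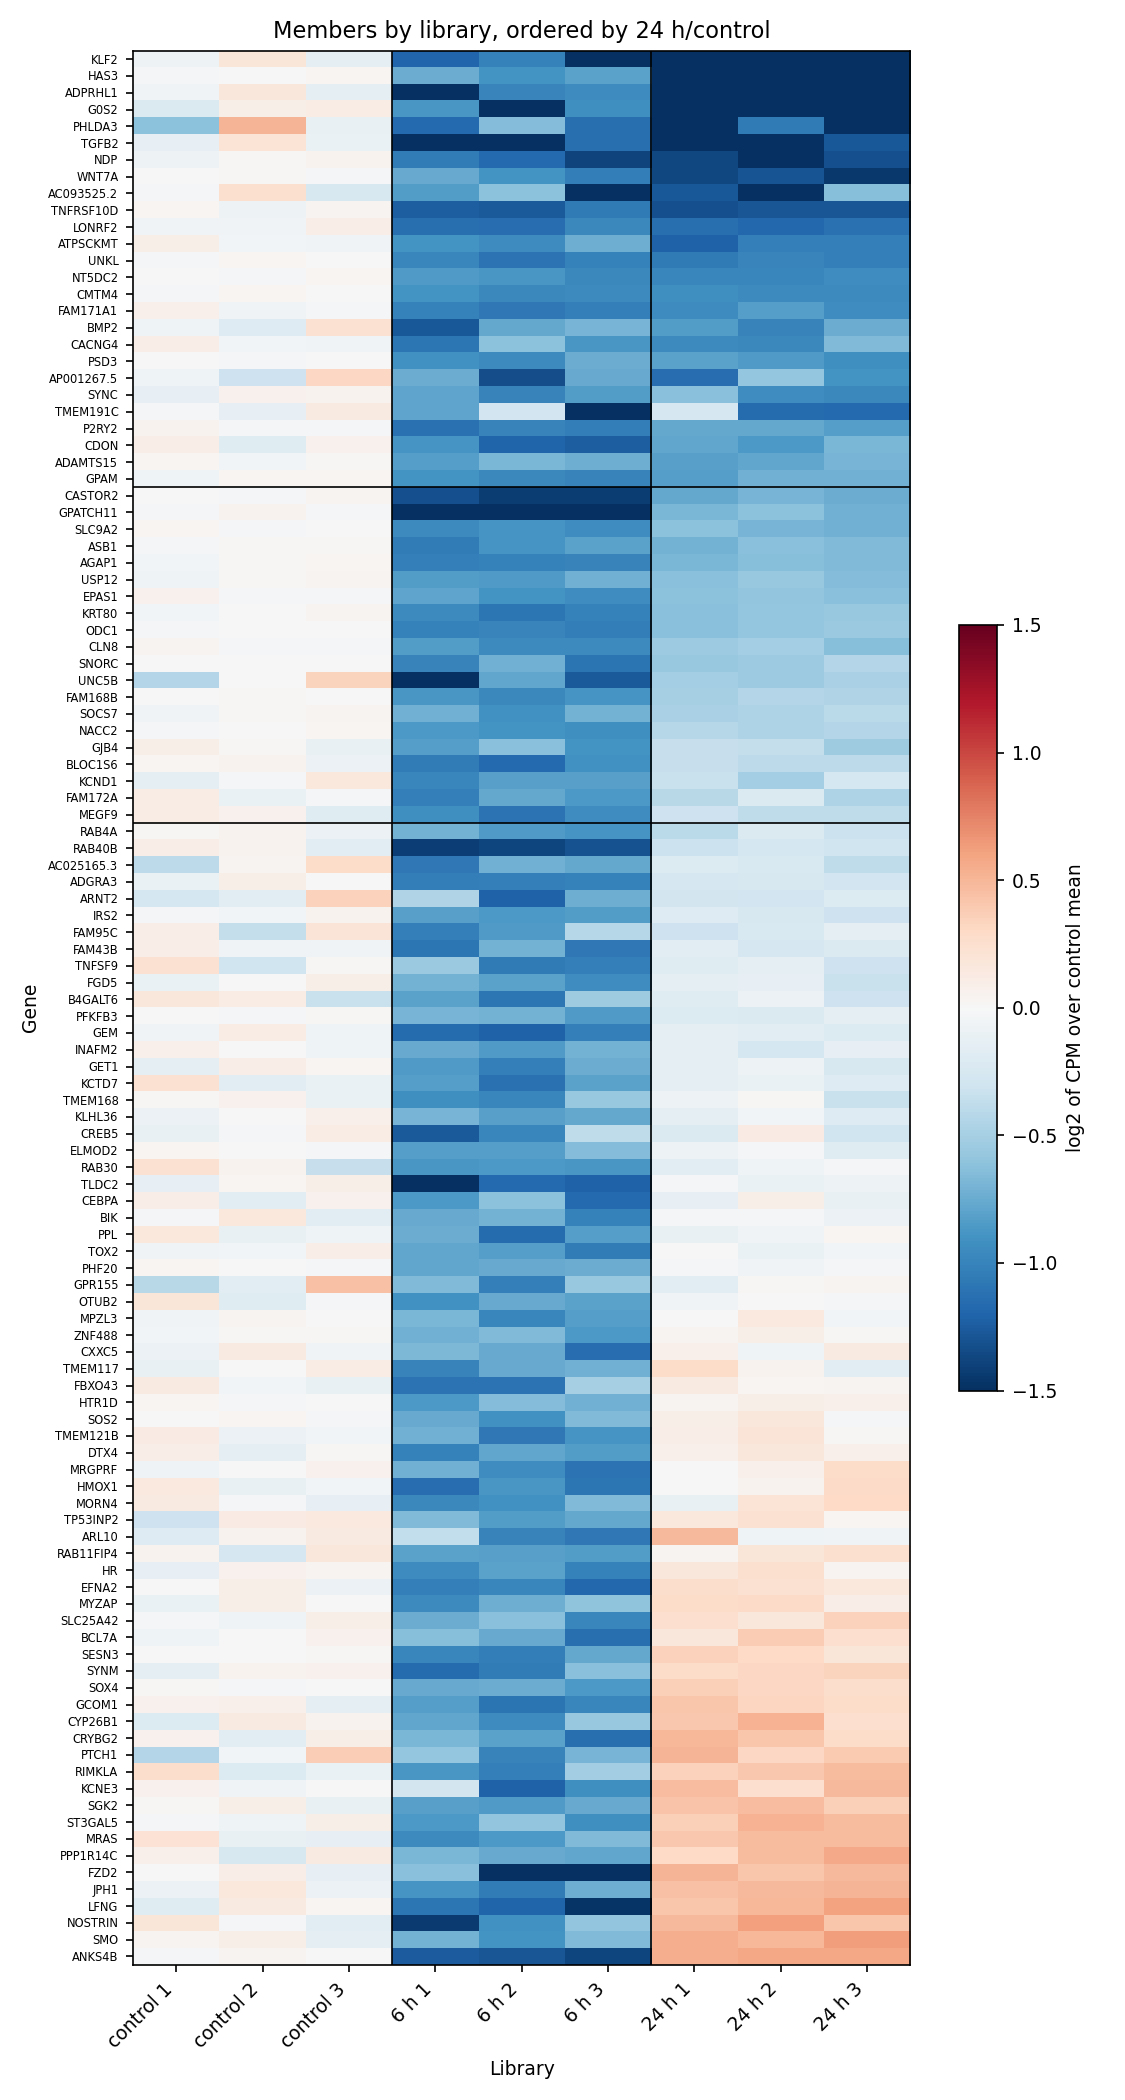
Level of each of the 114 genes (rows) in each of the 9 libraries (columns), as log2 of CPM over the control mean, with rows ordered by 24 h/control and horizontal lines between the classes; colours saturate beyond 1.5 in either direction. All rows are blue at 6 h, and at 24 h the rows run from blue (KLF2, top) to red (ANKS4B, bottom).

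Part-way genes had the highest median level in control cells. Per kb of transcript, for the 110 genes with a length in the annotation, the median control level was 2.296 CPM for recovered, 9.97 CPM for part-way and 3.72 CPM for still-low genes, with quartiles of 1.11 and 5.14, 4.33 and 22.3, and 1.06 and 8.15. Of the 8 genes with the highest CPM, which also grows with transcript length, 5 were part way (ODC1, FAM168B, NACC2, AGAP1 and KRT80), 2 were still low (NT5DC2 and PSD3) and PFKFB3 had recovered. ODC1, the rate-limiting enzyme of polyamine synthesis and a protein and RNA known for rapid turnover, had the highest control level, also per kb of transcript at 87.0 CPM. It measured 229, 232 and 232 CPM in the controls, 114, 116 and 113 CPM at 6 h and 150, 155 and 157 CPM at 24 h. Its groups did not overlap and it regained 33.8% of its fall (log2 difference 24 h over 6 h 0.43, SE 0.03, edgeR adjusted p = 1.04e-08). PFKFB3, whose product makes a regulatory fructose bisphosphate that activates phosphofructokinase and is not the glycolytic intermediate, measured 112, 109 and 113 CPM, then 68.7, 68.6 and 62.2 CPM, then 96.9, 96.2 and 101 CPM. It came closer to control, with 69.7% of its fall regained. NT5DC2 held 121, 120 and 124 CPM, then 67.7, 66.4 and 62.2 CPM, then 62.1, 61.8 and 64.1 CPM, and its 6 h and 24 h libraries overlapped.

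Of 8 ligands and matrix proteins or makers 6 were still low at 24 h and 2 had recovered, with a median 24 h/control ratio of 0.469. This and the other role groups were put together after the values had been seen, so the groups are only a way to order the genes. Over all 114 genes 59.6% had recovered, 17.5% were part way and 22.8% were still low. HAS3, a hyaluronan synthase that feeds the glycan coat and matrix around cells, measured 21.9, 22.1 and 22.6 CPM in the controls, 13.2, 11.97 and 12.7 CPM at 6 h and 6.20, 5.96 and 6.24 CPM at 24 h. It went down in 2 steps with no overlap between groups, and passed as lower at 24 h than at 6 h (log2 difference -1.03, SE 0.07, edgeR adjusted p = 4.72e-09). WNT7A, a secreted Wnt ligand at chr3:13816258-13880072 on the minus strand, measured 20.1, 20.4 and 19.8 CPM, then 11.9, 10.9 and 9.82 CPM, then 7.83, 8.19 and 7.38 CPM. It too kept falling (log2 difference -0.46, SE 0.08, edgeR adjusted p = 1.66e-04). NDP, which encodes norrin, a Frizzled ligand outside the Wnt family, was at 6.47, 6.90 and 7.11 CPM, then 3.31, 3.05 and 2.61 CPM, then 2.65, 2.11 and 2.74 CPM; its libraries at the 2 times overlapped.

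The pair of transforming growth factor ligands in the set sat near the floor of the assay. TGFB2 measured 1.92, 2.42 and 1.96 CPM in the controls, 0.649, 0.647 and 0.959 CPM at 6 h and 0.720, 0.704 and 0.869 CPM at 24 h. Its lowest library held 10 counts, the fewest of any gene here, and the 2 treated groups overlapped (log2 difference -0.03, SE 0.26). BMP2 was at 2.698, 2.47 and 3.33 CPM, then 1.17, 1.66 and 1.74 CPM, then 1.58, 1.41 and 1.68 CPM, with treated groups that overlapped. ADAMTS15, a secreted metalloprotease, was at 61.7 to 64.9 CPM in the controls and held at 36.0 to 39.5 CPM at 6 h and 36.3 to 39.2 CPM at 24 h. The 2 that had returned, EFNA2, an ephrin ligand, and TNFSF9, a costimulatory ligand of the tumour necrosis factor family, encode ligands held at the cell membrane rather than secreted. EFNA2 went from 16.5, 17.7 and 15.6 CPM to 8.18, 8.41 and 7.32 CPM and then to 19.9, 19.5 and 18.6 CPM, above every control.

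Receptors and other membrane signal proteins went both ways, with 7 of 13 recovered, 2 part way and 4 still low. The hedgehog receptors divided within the pathway, in which PTCH1 restrains SMO until a hedgehog ligand binds and CDON acts as a coreceptor. SMO measured 10.1, 10.5 and 8.93 CPM in the controls, 6.04, 5.27 and 6.22 CPM at 6 h and 14.4, 13.9 and 15.2 CPM at 24 h. All 3 of its 24 h libraries were above every control (24 h over 6 h log2 difference 1.31, SE 0.09, edgeR adjusted p = 4.41e-09). PTCH1 varied more in the controls, at 3.36, 4.43 and 5.87 CPM, and measured 3.05, 2.26 and 2.82 CPM at 6 h and 6.46, 5.63 and 5.97 CPM at 24 h. CDON measured 9.77, 8.06 and 9.58 CPM, then 4.93, 3.97 and 3.89 CPM, then 5.34, 5.04 and 5.67 CPM, and was still low although it passed as higher than at 6 h (log2 difference 0.36, SE 0.12, edgeR adjusted p = 0.0204). These 3 genes were put together after their values were seen.

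TNFRSF10D, a decoy receptor for the death ligand TRAIL that lacks a working death domain, stayed down. It measured 29.5, 27.4 and 29.6 CPM in the controls, 12.2, 12.01 and 13.9 CPM at 6 h and 11.5, 11.9 and 11.8 CPM at 24 h. The 24 h libraries all lay below the 6 h libraries, but the difference did not pass (log2 difference -0.13, SE 0.07, edgeR adjusted p = 0.114). P2RY2, a receptor for extracellular nucleotides, was at 76.9 to 81.7 CPM in the controls and regained little, from 36.2 to 39.2 CPM at 6 h to 44.1 to 46.2 CPM at 24 h. UNC5B, a netrin receptor, went from 2.52, 3.42 and 4.30 CPM to 1.10, 1.99 and 1.42 CPM and then to 2.39, 2.33 and 2.44 CPM. HTR1D, a serotonin receptor, returned in full, from 34.2 to 35.3 CPM in controls through 19.1 to 22.1 CPM at 6 h to 35.6 to 36.9 CPM at 24 h.

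**Figure D3:**
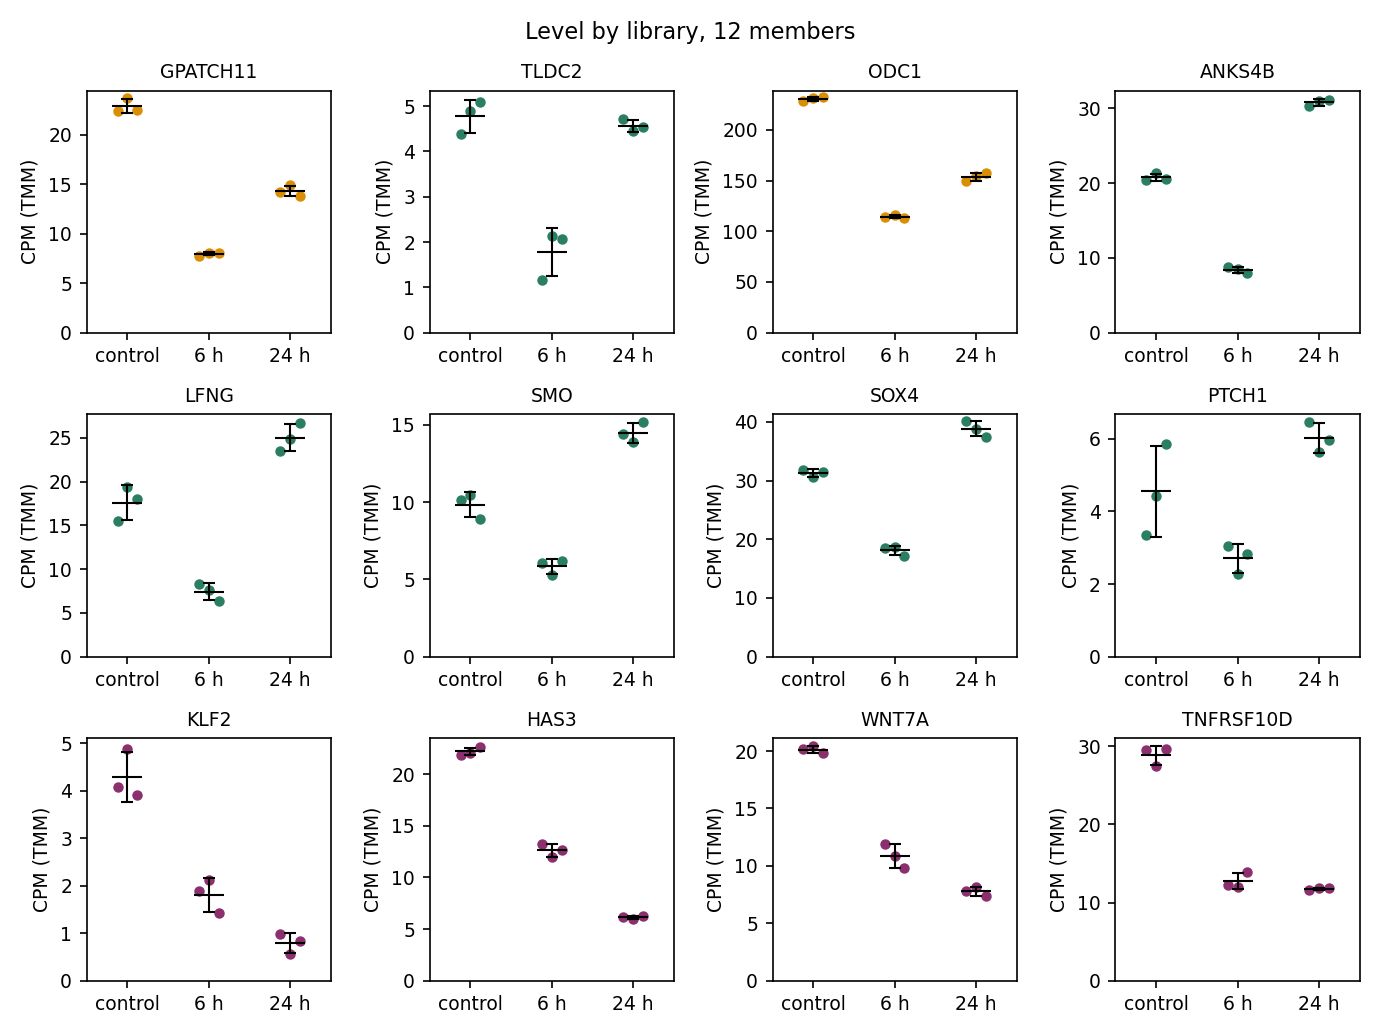
CPM with TMM scaling in each library for 12 of the genes, by group (points, with the mean as a dash and the SD as bars, n = 3; each axis starts at 0), coloured by class at 24 h. ANKS4B, LFNG, SMO and SOX4 end above their controls, ODC1 and GPATCH11 end between their 6 h and control levels, and KLF2, HAS3 and WNT7A end below their 6 h levels.

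Of a list of 39 tested Wnt pathway genes, 2 are in the set: WNT7A, described above, and FZD2, a Wnt receptor. FZD2 measured 2.22, 2.37 and 2.02 CPM in the controls, 1.43, 0.647 and 0.668 CPM at 6 h and 3.14, 2.93 and 3.09 CPM at 24 h. The receptor and the ligand thus parted at 24 h, FZD2 rising over 6 h (log2 difference 1.86, SE 0.22, edgeR adjusted p = 3.46e-06) while WNT7A fell. Over the whole list, FZD2 and WNT7A included, 17 genes passed as lower and 7 as higher at 6 h, beside 15.4% and 17.5% of all tested genes, and at 24 h 19 passed as higher and 7 as lower than control, beside 24.7% and 25.3%. The median log2 change was -0.19 at 6 h and 0.30 at 24 h, beside -0.01 and 0.00 over all tested genes. With library sizes alone as the scaling the counts were 23 lower and 7 higher at 6 h and 23 higher and 6 lower at 24 h, so neither direction turned. Outside the 114 genes, LRP6, a Wnt coreceptor, went from 56.9 CPM to 34.9 CPM and back to 63.1 CPM, FZD8 from 11.6 to 7.65 to 11.3 CPM, and FZD1 from 38.2 to 30.9 to 56.5 CPM. AXIN2, a feedback inhibitor that reports Wnt signalling, moved the other way, from 2.56 to 6.16 to 4.95 CPM. These 4 genes were chosen after their values were seen.

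Both Notch genes in the set, of 20 tested, recovered. LFNG, a glycosyltransferase that adds sugars to Notch and so alters which ligands it answers to, is at chr7:2512529-2529178 on the plus strand. It measured 15.5, 19.3 and 18.0 CPM in the controls, 8.31, 7.62 and 6.36 CPM at 6 h and 23.5, 24.9 and 26.7 CPM at 24 h, and no groups overlapped (24 h over 6 h log2 difference 1.79, SE 0.09, edgeR adjusted p = 3.01e-10). DTX4, a ubiquitin ligase of the Deltex family, went from 10.3, 8.71 and 9.65 CPM to 4.74, 5.54 and 5.34 CPM and back to 10.04, 10.7 and 10.02 CPM, overlapping the controls. Over the whole list, these 2 included, 5 genes passed as lower and 5 as higher at 6 h, again beside 15.4% and 17.5% of all tested genes, and 5 and 7 at 24 h, beside 25.3% and 24.7%. With library sizes alone 10 were lower and 5 higher at 6 h. Against the same shares at 6 h, the Smad-linked list gave 10 lower and 9 higher of 31 tested, with BMP2 and TGFB2 in the set, and 15 lower and 5 higher with library sizes alone.

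Of 13 transcription and chromatin factors 10 had recovered, beside 59.6% of all 114 genes, with 2 part way and KLF2 alone still low. KLF2, a Kruppel-like factor known as a flow-induced and quiescence gene and a short-lived transcript, is at chr19:16324826-16328686 on the plus strand. It measured 4.08, 4.88 and 3.91 CPM in the controls, 1.88, 2.13 and 1.42 CPM at 6 h and 0.976, 0.556 and 0.842 CPM at 24 h. Each group lay wholly below the one before, and 24 h passed as lower than 6 h (log2 difference -1.11, SE 0.23, edgeR adjusted p = 7.12e-04), on 15 counts in its lowest library. SOX4, a factor with roles in progenitor cells and in epithelial tumours, measured 31.8, 30.6 and 31.5 CPM, then 18.5, 18.6 and 17.2 CPM, then 40.1, 38.9 and 37.5 CPM, above every control at 24 h. ZNF488 was the single member (0.198%) among 504 tested genes of a zinc finger list, which was drawn by symbol and leaves out KLF2. ZNF488 measured 49.998, 52.3 and 52.0 CPM, then 31.2, 32.6 and 28.3 CPM, then 52.7, 54.9 and 52.0 CPM. EPAS1, a hypoxia-inducible factor subunit, was part way at 70.5 to 75.6 CPM, 37.9 to 41.6 CPM and 46.8 to 47.9 CPM. Of 45 tested immediate early and short-lived transcripts KLF2 alone is in the set, which holds 0.672% of all tested genes. At 6 h 14 of the 45 passed as lower and 18 as higher, beside 15.4% and 17.5% of all tested genes. With library sizes alone that split turned, to 19 lower and 16 higher.

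Genes of the cytoskeleton and of cell contacts had the highest median 24 h/control ratio of the groups with at least 5 genes, 1.204. Of these 10 genes 8 had recovered, beside 59.6% of all 114 genes. ANKS4B, a scaffold of the adhesion complex between microvilli of the brush border, is at chr16:21233699-21253851 on the plus strand. It had 20.4, 21.3 and 20.6 CPM in the controls, 8.76, 8.55 and 7.99 CPM at 6 h and 30.3, 31.0 and 31.0 CPM at 24 h. It combined one of the deepest falls with the highest later level, a ratio of 1.48 to control and a log2 difference from 6 h of 1.88 (SE 0.06, edgeR adjusted p = 2.68e-13). NOSTRIN, an adaptor that brings nitric oxide synthase into vesicles, went from 5.02 to 6.35 CPM through 2.08 to 3.72 CPM to 7.49 to 8.63 CPM. KRT80, an epithelial keratin, returned only part way, from 88.4, 90.1 and 93.4 CPM to 46.9, 42.7 and 44.8 CPM and then to 58.7, 60.5 and 60.9 CPM. GCOM1 and MYZAP, both above control at 24 h, share 93458 bases on the same strand, so their reads may be split or shared between them.

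Among 12 small GTPases and their regulators 10 recovered, beside 59.6% of all 114 genes, with AGAP1 part way and PSD3 still low. RAB40B, a Rab-like protein that joins a ubiquitin ligase, had the deepest fall of the group, from 10.6, 10.2 and 8.80 CPM to 3.70, 3.79 and 3.98 CPM, and reached 7.92, 8.22 and 8.04 CPM. MRAS, a Ras relative, rose past its controls, from 3.72 to 4.68 CPM through 2.08 to 2.56 CPM to 5.34 to 5.63 CPM. PSD3, an exchange factor for the ARF family, stayed at 53.4 to 61.7 CPM at 6 h and 54.7 to 59.2 CPM at 24 h, from 102 to 104 CPM. Of the 7 insulin, cytokine and growth signal adaptors 4 recovered. IRS2, the insulin receptor substrate, measured 65.3, 64.4 and 68.9 CPM, then 37.6, 36.3 and 37.2 CPM, then 57.8, 56.0 and 53.2 CPM, still under every control. CASTOR2, of a family that ties amino acid supply to the growth kinase mTORC1, fell deeper and came back less, from 20.3 to 21.4 CPM through 7.76 to 8.31 CPM to 12.2 to 12.9 CPM. PHLDA3, a p53 target that restrains AKT, was still low, but its controls spread from 1.62 to 3.52 CPM. It measured 1.10, 1.57 and 1.13 CPM at 6 h and 0.720, 1.19 and 0.787 CPM at 24 h, and the treated groups overlapped.

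**Figure D4:**
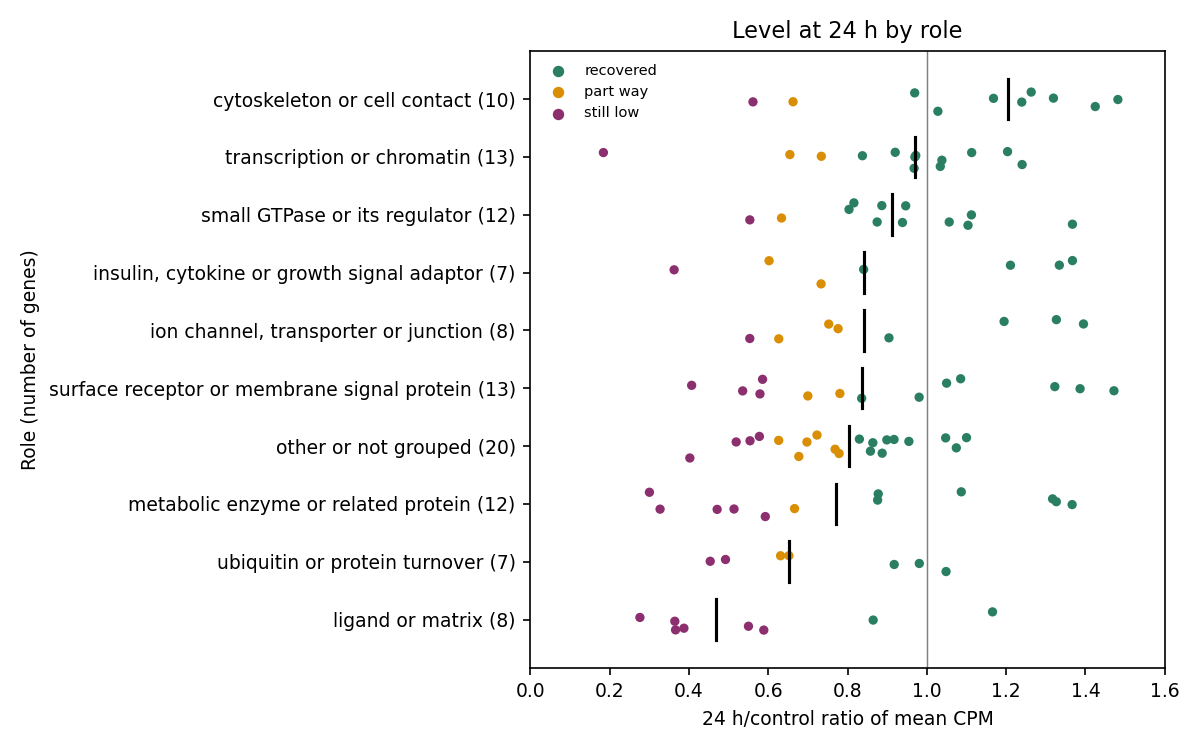
Ratio of mean CPM at 24 h to control (horizontal) for each gene, by role group with at least 5 genes (rows, number of genes in brackets); black bars are group medians and colours are classes at 24 h. Ligands and matrix proteins or makers have the lowest median, 0.469, and cytoskeleton or cell contact genes the highest, 1.204.

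Of 12 metabolic enzymes and related proteins 6 recovered, ODC1 was part way and 5 were still low. Those still low were ADPRHL1, G0S2, ATPSCKMT, NT5DC2 and GPAM. G0S2, an inhibitor of the main triglyceride lipase, measured 2.46, 3.02 and 3.06 CPM in the controls, 1.56, 0.786 and 1.51 CPM at 6 h and 0.930, 0.889 and 0.977 CPM at 24 h. GPAM, which adds the first acyl chain in glycerolipid synthesis, measured 29.7, 31.6 and 31.8 CPM, then 16.7, 15.8 and 15.5 CPM, then 17.5, 18.9 and 18.8 CPM. Both genes were still low, GPAM with a small gain over 6 h (log2 difference 0.21, SE 0.06, edgeR adjusted p = 0.00564). ADPRHL1, a relative of the ADP-ribosylhydrolases, fell in 2 steps, from 9.05, 10.6 and 8.54 CPM to 3.31, 4.71 and 4.88 CPM and then to 2.35, 3.07 and 3.04 CPM (log2 difference -0.66, SE 0.16, edgeR adjusted p = 0.00259). Among recovered enzymes, ST3GAL5, the sialyltransferase that starts the ganglioside series, rose from 2.67 to 3.37 CPM at 6 h to 6.51 to 7.26 CPM, above its controls at 4.83 to 5.41 CPM. HMOX1, which degrades heme, went from 2.52, 2.11 and 2.22 CPM to 1.04, 1.248 and 1.07 CPM and then to 2.28, 2.37 and 2.80 CPM. No gene of a 30-gene sterol and fatty acid list belongs to the set. On that list 14 passed as lower and 4 as higher at 6 h, and 22 as higher and 1 as lower at 24 h, beside 15.4% lower and 17.5% higher of all tested genes at 6 h and 24.7% higher and 25.3% lower at 24 h. Its median log2 change was -0.13 at 6 h and 0.51 at 24 h, and library sizes alone gave 24 lower and 4 higher at 6 h.

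Of 8 channels, transporters and junction proteins 4 recovered, 3 were part way and 1 was still low. JPH1, which ties the endoplasmic reticulum to the plasma membrane, went from 4.96 to 5.89 CPM through 2.54 to 3.17 CPM to 7.18 to 7.52 CPM. SLC25A42, a mitochondrial carrier of coenzyme A, measured 7.07, 6.85 and 7.63 CPM, then 4.28, 4.67 and 3.66 CPM, then 8.55, 8.08 and 9.12 CPM. SLC9A2, a sodium and proton exchanger, gained little, from 38.6 to 40.05 CPM through 20.3 to 21.4 CPM to 24.0 to 25.7 CPM. Of the 7 ubiquitin and protein turnover genes LONRF2 and UNKL were still low, at 24 h/control ratios of 0.454 and 0.492, and FBXO43, an inhibitor of the anaphase-promoting complex, was back at a ratio of 1.05. BIK, a pro-apoptotic protein of the BCL2 family, and TP53INP2, an autophagy factor, both recovered, at ratios of 0.969 and 1.10.

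Of the 114 genes 3 overlap a gene at least 2-fold higher at 6 h (GPATCH11, TLDC2 and FAM95C), and 2 of these are among the 3 deepest falls. The partner of FAM95C, AL390726.4, is near the floor, at 0.269 CPM in controls and 0.555 CPM at 6 h. The share of all genes with such an overlap was not counted, so nothing is read from the 3. GPATCH11, which encodes a G-patch protein, had the lowest 6 h/control ratio of all, 0.349. It measured 22.4, 23.7 and 22.5 CPM in the controls, 7.79, 8.09 and 8.05 CPM at 6 h and 14.2, 14.9 and 13.8 CPM at 24 h, with no overlap. It lies at chr2:37084451-37099245 on the plus strand and meets EIF2AK2, the interferon-induced kinase PKR, tail to tail on the other strand over 36 bases. EIF2AK2 went from 110 CPM to 643 CPM at 6 h and 354 CPM at 24 h. TLDC2, behind only GPATCH11 and TGFB2 in depth at a ratio of 0.373, measured 4.38, 4.88 and 5.09 CPM, then 1.17, 2.13 and 2.06 CPM, then 4.72, 4.45 and 4.53 CPM. It lies at chr20:36876121-36894236 on the plus strand and meets SAMHD1, an interferon-induced dNTP hydrolase, tail to tail over 4008 bases, and SAMHD1 went from 52.8 to 609 to 344 CPM. In both pairs the fallen gene rose again from 6 to 24 h while its partner came down. Both courses were common: 91 of the 114 genes passed as higher at 24 h than at 6 h. Of the 20 listed interferon-response genes 17 passed as lower at 24 h than at 6 h. Whether the genes of a pair are linked was not tested. Looking for such pairs after these values were seen, 8 protein-coding genes with at least 2 CPM in controls met a gene at least 4-fold higher at 6 h tail to tail on the other strand. Of these 8 genes 6 had a 6 h/control ratio under 1: GPATCH11, TLDC2, DDX27 (ratio 0.845, beside ZNFX1), ZC2HC1A (0.896, beside IL7), PRKRA (0.941, beside CHROMR) and NANS (0.998, beside TRIM14). TMEM132A beside SLC15A3 was at 1.18. Of the 11220 protein-coding genes at this level 50.9% had a ratio under 1. So did 1 of 7 genes that met such a gene head to head, and the gene in 2 of 9 nested pairs. LIPA enters the nested pairs beside each of IFIT1, IFIT2 and IFIT3. In these 2 arrangements PSMB8, PSMB9, DTX3L, PARP9 and TAP1 were themselves at least 4-fold higher at 6 h, so their ratios could not be under 1. GPATCH11 and TLDC2 prompted this search and were chosen for their low 6 h ratios, so the 6 of 8 is raised by the choice. The others of the 6 lay at 0.845 to 0.998. The difference between the arrangements was not tested, and nothing is read from it. Whether strand was used in counting is not stated in the labels or notes, so reads from the shared bases cannot be told apart.

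Other overlaps limit some of the members. Of the 114 genes 82 overlap no other tested gene, counting all biotypes except small multicopy RNAs, and 14 overlap one on the same strand. AC093525.2, AP001267.5 and AC025165.3 each span several other genes on their strand, such as ATP6V0C, KMT2A and TSFM, and their values are uncertain. AC093525.2 measured 3.18, 3.83 and 2.74 CPM, then 1.82, 2.13 and 0.639 CPM, then 1.35, 0.482 and 2.09 CPM, a wider spread than most.

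As a property the selection did not use, the 3' untranslated region (UTR) had a longer median in these genes than in the other protein-coding genes at this level. UTRs carry the sites through which microRNAs and RNA-binding proteins set how fast a transcript decays. In the reference annotation (GENCODE release 29), 110 of the 114 genes had a value, with a median of 2240 bases and quartiles of 961 and 3188 bases. Among the 11106 others, 10863 had a value, with a median of 1010 bases and quartiles of 373 and 2305 bases. The difference ran the same way in each of 4 equal bins of genes by control level. From the lowest bin to the highest the medians were 2105 against 868 bases, 1669 against 1009, 2533 against 1082 and 2402 against 1107, with 16 and 11 genes of the set in the upper bins. Taking the longest UTR of each gene's coding transcripts gave 2407 bases against 1396. By class at 24 h the medians were 2012 bases for recovered and 1858 bases for still-low genes, both under the 2240 bases of the whole set. No median was taken for the part-way genes, which ran from 50 bases (SNORC) to 6111 bases (SOCS7), so the classes are not shown to be alike. The AU-rich pentamer ATTTA, found in many unstable transcripts, was no denser: its median was 1.67 per kb of UTR in these genes and 1.73 per kb in the others. Coding sequences were about as long, with medians of 1296 and 1434 bases, and the genes had fewer exons, 6 against 9. No test was run on these properties, since genes are not replicates.

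**Figure D5:**
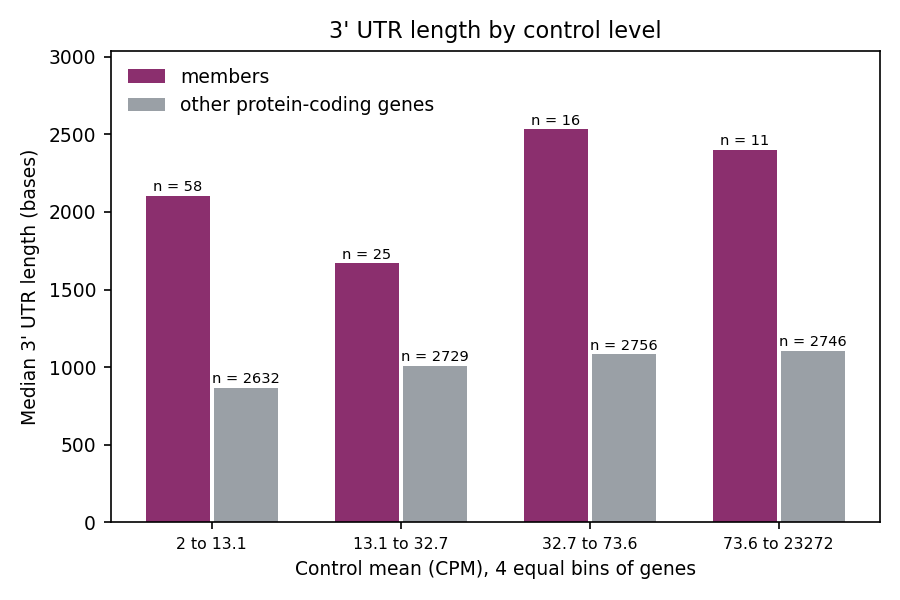
Median 3' UTR length in bases (vertical, from 0) of the genes in the set and of other protein-coding genes, in 4 equal groups of genes by control mean CPM (horizontal). The genes in the set have the longer median in each bin, 2105 against 868 bases in the lowest and 2402 against 1107 bases in the highest; n is the number of genes with a value.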

How the data were processed

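RNA of 9 SUIT2 samples was sequenced on an Illumina HiSeq instrument, per the labels' protocols, and STAR 2.7.8a, Partek and hg38 are named in the submitters' processing notes. The authors deposited estimated counts per gene for 59609 genes, which were rounded to whole numbers. They also deposited a TMM-normalized signal table with 0.0001 added to each count, used only as an alternative. Annotation, counting method and strand: not given in the sources used here.

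Genes were filtered with filterByExpr (minimum count 10, minimum total 15), scaled by TMM and tested with edgeR 4.0.16 (quasi-likelihood, R 4.3.3) in 1 model over 9 libraries with 6 residual degrees of freedom, with Benjamini-Hochberg adjustment over 16964 genes and a threshold of 0.05. SE is the absolute log2 fold change over the square root of F. Depth was 15101734 to 40384407 counts per library, and counting error limits genes near 2 CPM. Replicate numbers come from the sample titles.

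The members and gene lists were chosen with earlier results of these data known. Named genes were the 12 lowest 6 h/control ratios, the 8 highest control levels, the 10 highest and 10 lowest 24 h/control ratios, up to 5 per list and those nearest the limit, and others are named to complete a group. The test of 24 h against 6 h was checked on simulated counts with known changes. It called 62% of 1.25-fold, 62% of 1.5-fold, 86% of 2-fold and 100% of 4-fold changes. Of 16718 genes tested there, 11 were called although unchanged. A gene that did not pass may thus have changed. Alternatives were DESeq2 1.42.0, limma-voom (limma 3.58.1), other scalings and filters, other limits, a replicate block and each library left out. Figures were drawn with matplotlib 3.10.9. Promoters came from RefSeq on GRCh38.p14. One gene pair and one gene left out by the limit at 24 h are not reported here.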

Additional observations from a re-analysis of the deposited data

Results flagged for a closer look

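The changes at 6 h and at 24 h share their controls, so the test of 24 h against 6 h is the test of whether the 2 changes differ. By that test 91 of the 114 genes were higher at 24 h than at 6 h and 5 were lower. The log2 differences of the named genes, and of ATPSCKMT, that passed were largest for ANKS4B 1.88, FZD2 1.86, LFNG 1.79, NOSTRIN 1.38, JPH1 1.35, SMO 1.31, TLDC2 1.30, MRAS 1.24, ST3GAL5 1.24, SGK2 1.21, PPP1R14C 1.19, SOX4 1.11, RAB40B 1.06, SLC25A42 1.05. Between 0.5 and 1 were DTX4 0.96, FBXO43 0.89, GPATCH11 0.84, ZNF488 0.80, HTR1D 0.80, GPR155 0.69, CASTOR2 0.66, UNC5B 0.65, IRS2 0.59, PFKFB3 0.57. Smaller rises were NACC2 0.44, FAM168B 0.44, ODC1 0.43, KRT80 0.43, AGAP1 0.35, SLC9A2 0.25. The falls were KLF2 -1.11, HAS3 -1.03, ADPRHL1 -0.66, WNT7A -0.46, ATPSCKMT -0.25. The 6 h libraries used here are those that chose the genes, so a rise is favoured by the choice.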

How the results depend on the processing

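Class counts rest on the scaling and the limit on the ratio. With library size only, which shifts the median of all genes by -0.14 (log2) at 6 h, the rule gave 220 genes, 110 of them among the 114, and 147 had recovered. The authors' deposited normalized table puts the median gene 0.18 higher at 6 h and 0.44 higher at 24 h than in controls, and gave 29 genes, all among the 114, with 17 recovered and 6 still low. In it 2 genes passed as lower at 24 h than at 6 h (pseudocount 1). A ratio limit of 0.5 gave 28 genes and one of 0.67 gave 245. Leaving out each library in turn left 111 to 133 genes by the rule, with 96 (without control replicate 3) to 112 of them among the 114.

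The replicate numbers gave no clear pairing of the samples: correlations of same-numbered libraries ran from -0.0588 to 0.0214. Only 1 of 9 libraries correlated best with its own number in both other groups. Between control and 24 h each library did so, but only at 0.00462 to 0.00915. With a replicate block 91 genes were higher and 5 lower. Over 15 settings of the test 83 genes were called higher in each, and KLF2 and HAS3 lower in each. Of the genes named by the rule, which ATPSCKMT is not, 34 passed, and none of those changed sign; UNC5B lost its call without 6 h replicate 1 (0.52) or 3, GPR155 without 6 h replicate 2 (0.57), and ADPRHL1 and WNT7A in the deposited table (-0.27 and -0.18).

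Log2 differences of genes that had not passed did change sign. BMP2 was 0.0139 with DESeq2, 0.00493 with median of ratios, 0.21 with library size only, 0.0203 with a replicate block, 0.0206 with the treated groups only, 0.18 in the deposited table, and -0.13 to 0.11 with each library left out. TGFB2 was 0.19 with library size only, 0.00615 with a replicate block, 0.12 in the deposited table and -0.14 to 0.24 with each library left out. PSD3 was -0.000675 with limma-voom and -0.0456 to 0.0806 with each library left out. AC093525.2 was 0.0510 with limma-voom, 0.16 with library size only, 0.0389 in the deposited table and -0.55 to 0.34 with each library left out. With library size only TNFRSF10D was 0.0847 and NT5DC2 0.16 (adjusted p = 0.00179), and in the deposited table they were 0.15 and 0.21, with NDP at 0.00999. The cause was not tested.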

Other observations

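The limit at 24 h left out 22 protein-coding genes that met the limits at 6 h and stood at 1.5 times control or more at 24 h. CREB3L3, a membrane-bound transcription factor of lipid metabolism, measured 7.55, 7.70 and 8.54 CPM in the controls, 2.79, 2.59 and 3.08 CPM at 6 h and 20.3, 17.5 and 19.4 CPM at 24 h. SLC40A1, which encodes the iron exporter ferroportin, measured 2.40, 2.42 and 1.89 CPM, then 1.04, 0.508 and 1.02 CPM, then 6.83, 6.48 and 6.52 CPM. HOXB13 went from a mean of 6.37 to 2.88 to 12.6 CPM, and E2F2 from 8.62 to 4.89 to 17.1 CPM.

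Another 21 genes of other biotypes met the numeric limits. DANCR, a long noncoding RNA, kept falling, with 38.7, 37.4 and 35.1 CPM in the controls, 21.0, 22.1 and 20.2 CPM at 6 h and 13.2, 13.5 and 13.7 CPM at 24 h. OTUD6B-AS1 went from a mean of 27.0 to 16.0 to 27.3 CPM. The hemoglobin genes HBB and HBA2 had low 6 h/control ratios, 0.102 and 0.267, that rested on control replicate 1: HBB measured 9.65, 0.101 and 0 CPM in the controls and HBA2 6.83, 0.101 and 0.326 CPM, and both failed the requirement that groups not overlap.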
